A study of Mus musculus with 21 samples.

Results

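The change of the FcMR effect between 12 h and 24 h was measured as an interaction on the log2 scale, the difference between FcMR and isotype control at 24 h minus the same difference at 12 h. It was taken from the 12 libraries whose titles name FcMR or isotype at these times, of 21 libraries in the series. The libraries form 4 groups of 3: FcMR at 12 h, isotype at 12 h, FcMR at 24 h and isotype at 24 h. FcMR is a recombinant protein that joins the mannose receptor ectodomain to the Fc part of human IgG1, and the isotype control stands in for it in the control cultures; the study used it to ask what soluble mannose receptor does to macrophages. In all 4 groups the cells were macrophages grown for 7 days from bone marrow of C57BL/6J mice in medium with 2.5% supernatant of a line that secretes GM-CSF, and the series describes them as lacking the mannose receptor. No label says whether the 3 libraries of a group came from separate mice or cultures, so the p-values measure the spread between these libraries, which may be technical. The cells expressed the macrophage genes Csf1r (843.2 to 1258.4 CPM, counts brought to the same total in every library with TMM factors) and Lyz2 (16914 to 31323.2 CPM) in every library. Mrc1, which encodes the mannose receptor, was at 0 to 10 counts in each of the 12 libraries, controls included, and was not tested.

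Macrophages answer an inflammatory stimulus in waves. Transcripts of early cytokines and chemokines, such as Tnf and Ccl3, are short-lived and are brought down by feedback inhibitors, while enzymes and surface receptors made later can stay high for longer. The mannose receptor is a C-type lectin that binds sugars, and its extracellular part can be shed as a soluble protein. An effect of FcMR can differ between 2 times because the FcMR level moved, because the isotype level moved, or both, so the 4 levels are given for each gene.

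Library totals ran from 6676302 to 66729533 counts, so that 3 counts correspond to 0.04496 to 0.4494 CPM before TMM scaling. FcMR 12 h replicate 1 stood apart from its group. Its log2 level of GC-rich genes relative to GC-poor genes was -0.876 against the mean over libraries, where the other FcMR 12 h libraries were at 0.628 and 0.70, and its library number in the title is out of group order. This GC measure also differed between groups: it was 0.475 to 0.720 in isotype 12 h, -0.243 to -0.188 in isotype 24 h and -1.483 to 0.297 in FcMR 24 h. Interactions were therefore also fitted with GC offsets, and without FcMR 12 h replicate 1. Of 170 called interactions, 166 were also called with GC offsets and 146 without that library. FcMR 24 h replicate 2 also stood apart, at -1.483 where the others of its group were at -0.518 and 0.297. It had the highest mitochondrial share, 4.111%, and its correlation with replicate 3 was the lowest of all replicate pairs (r = 0.9458). Without FcMR 24 h replicate 2, 124 of the 170 were called. Among fits that left out a library, p-values for single genes are given only for the fit without FcMR 12 h replicate 1.

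The FcMR effect changed between 12 h and 24 h in 170 of 13079 genes tested, 1.30% (edgeR quasi-likelihood test, adjusted p under 0.05). It was higher at 24 h in 113 genes (0.864%) and lower in 57 genes (0.436%). A higher or lower effect means a positive or negative interaction, so that a negative effect that grew in size counts as lower. Among all genes tested the median interaction was 0.03, with 7156 positive and 5923 negative values. At an unadjusted p under 0.05 there were 1318 genes. FcMR differed from isotype in 2037 genes at 12 h (15.6%; 1071 higher, 8.19%, and 966 lower, 7.39%) and in 2654 genes at 24 h (20.3%; 1464 higher, 11.2%, and 1190 lower, 9.10%). In 68 of the 170 the effect was called at both times and was larger at 24 h, in 62 it was called at 24 h alone, in 16 at 12 h alone, in 12 at both times but smaller at 24 h, and in 12 at both times with opposite signs. Those with opposite signs were Vegfa, Cacna1b, Fbxo32, Ica1, Cxcr4, Creg2, Mgst2, Ass1, Mdp1, Uck2, Penk and Mmp13. FcMR and isotype libraries did not overlap in 160 of the 170 genes at 24 h, where 35.3% of all genes tested did not, and in 131 at 12 h, where 35.9% did not; the 170 were chosen by a test that favours separate groups, so nothing is read from these counts. Of the 170, 56 were called in all 12 fits that left out 1 library, and 170 of 170 kept their sign in every fit tried. The number called fell to between 60 and 111 when FcMR 12 h replicate 2 or 3, FcMR 24 h replicate 1, or any isotype library was left out. It rose to 297 with DESeq2, 597 with GC offsets and 736 with GC offsets and the replicate block. Of 43 named called genes, 25 were called in all 12 fits that left out 1 library. Gbp2 and Cx3cr1 were called in 9, Cbln1 and Csf1 in 5, Ehd4, C3ar1, Fcgr4 and Ccl7 in 3, Gsta1, Il12a, Fpr2, Ccl4, Trim30c and Hal in 2, and Clec9a, Klf4, Ccl22 and Tnfaip3 in 1.

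Both treatments moved with time. The FcMR level changed from 12 h to 24 h in 3239 genes (24.8%), with 1579 higher (12.1%) and 1660 lower (12.7%) at 24 h. The isotype level changed in 2282 genes (17.4%), with 960 higher (7.34%) and 1322 lower (10.1%). Which treatment had more such genes depended on single libraries: there were 1803 for FcMR and 2068 for isotype without FcMR 12 h replicate 2, 1893 and 2092 without FcMR 12 h replicate 3, 2500 and 3004 without FcMR 24 h replicate 2, and 5058 and 3449 without FcMR 12 h replicate 1. Of the 170 genes, the FcMR level alone passed the test over time in 66, of which 40 rose and 26 fell. The isotype level alone passed in 48, of which 29 fell and 19 rose. Both levels passed in the same direction in 40 genes: both fell with isotype falling more in 16, both rose with FcMR rising more in 14, both fell with FcMR falling more in 6, and both rose with isotype rising more in 4. They passed in opposite directions in 16 genes, with FcMR rising and isotype falling in 14 and the reverse in 2. A level that did not pass is not shown to be constant. Of the 170 genes, 88 overlap another annotated gene body, introns included, on the same or the opposite strand. Whether their transcripts share sequence, so that reads could be misassigned, was not checked. Among genes named here, called or not and Mybl2 not checked, an overlap holds for C1s1, C3, Cfb, Slc1a2, Cbln1, Gp6, Acsl1, Ptges, Ptgs1, Gbp2, Clec9a, Cx3cr1, Slc7a2, Fpr2, Inhba, Rgl1, Ctsl, Fcgr4, Lyn, Lat2, Fn1, Sh3bp5, Cacna1b, Penk, Fbxo32, Creg2, Mgst2, Mdp1, Uck2, Il1b, Ptprc and Ccl2.

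**Figure D1:**
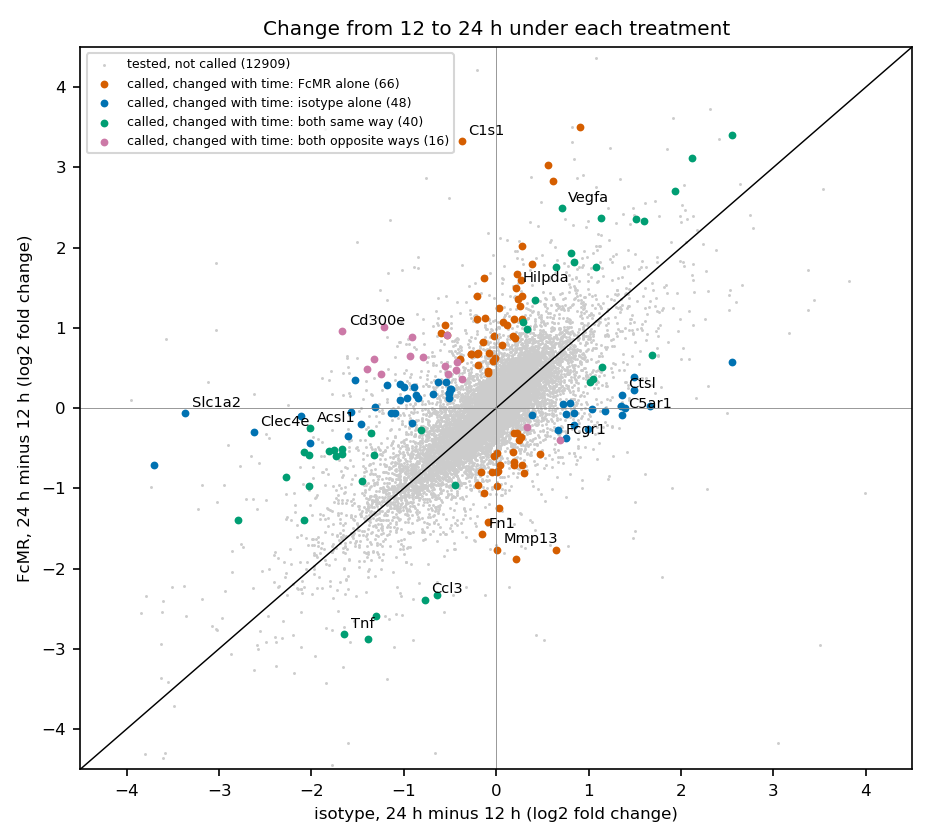
Change from 12 h to 24 h of the isotype level (x axis, log2) against that of the FcMR level (y axis, log2), 1 point per gene; coloured points are the 170 called genes by which level passed the test over time and grey points the 12909 genes not called. Called genes lie away from the diagonal, along the vertical direction where the FcMR level alone moved (66 genes) and along the horizontal where the isotype level alone moved (48 genes); 78 genes, none of them called, lie outside the axes.

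Tnf, Ccl3 and Ccl4 were higher with FcMR at 12 h, and this effect was smaller or no longer called at 24 h. Tnf (ENSMUSG00000024401, chromosome 17, 35199381 to 35202007), the secreted cytokine that starts much of the acute inflammatory response, was at 488.4, 519.3 and 469.5 CPM in the FcMR 12 h libraries and at 142.9, 149.5 and 152.5 in isotype 12 h. At 24 h it was at 62.32, 70.46 and 76.28 CPM with FcMR and at 43.47, 47.42 and 51.66 with isotype. FcMR libraries were above isotype libraries at each time without overlap. Both levels fell, FcMR by 2.82 (log2) and isotype by 1.64, and the effect went from 1.73 to 0.55 (interaction -1.18, SE 0.13, edgeR adjusted p = 0.00164). Ccl3 (chromosome 11, 83647844 to 83649355), a chemokine for monocytes and T cells, was at 371, 360.7 and 287.5 CPM with FcMR and at 116.4, 110.2 and 92.26 with isotype at 12 h. At 24 h the values were 67.95, 62.54 and 64.3 with FcMR and 62.19, 63.66 and 61.13 with isotype, and the libraries of the 2 treatments overlapped. The FcMR level of Ccl3 fell by 2.39 (log2) and the isotype level by 0.77 (interaction -1.62, SE 0.16, edgeR adjusted p = 0.00103). Ccl4, the neighbouring chemokine gene, had an effect of 0.86 at 12 h and -0.42 at 24 h, the second not called (interaction -1.28, SE 0.27, edgeR adjusted p = 0.0452, and 0.06 without FcMR 12 h replicate 1).

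Of the 22 chemokines tested, 3 had a lower effect at 24 h (Ccl3, Ccl4 and Ccl7) and 1 a higher (Ccl22), with a median interaction of -0.15. Over all genes tested, 0.436% were called lower and 0.864% higher. Ccl7, a monocyte chemoattractant, was at 3.063 to 4.835 CPM with FcMR and 3.273 to 7.298 with isotype at 12 h, which overlapped, and at 1.009 to 1.269 against 5.784 to 11.07 at 24 h, which did not (interaction -2.41, SE 0.48, edgeR adjusted p = 0.0374, and 0.0671 without FcMR 12 h replicate 1). For Ccl7 the FcMR level alone passed the test over time, falling by 1.77 (log2). Ccl2, of the same family, had an interaction of -1.71 (SE 0.42) that did not pass (edgeR adjusted p = 0.0852). Ccl2 was called with GC offsets (edgeR adjusted p = 0.0187) and with a block for replicate number (0.00303). Ccl22, a chemokine that draws T cells carrying CCR4, fell with both treatments, by 1.39 with FcMR and by 2.08 with isotype, and its effect was higher at 24 h (interaction 0.69, SE 0.15, edgeR adjusted p = 0.0452).

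Of the 21 inflammatory cytokines and growth factors tested, 3 had a higher effect at 24 h (Vegfa, Il12a and Inhba) and 2 a lower (Tnf and Csf1), and 13 of 21 interactions were negative, with a median of -0.37. Over all genes, 0.864% were called higher and 0.436% lower, and 5923 of 13079 interactions were negative. Il12a, a subunit of interleukin 12, was at 16.37, 18.9 and 19.81 CPM with FcMR and 1.597, 2.24 and 2.016 with isotype at 12 h. At 24 h it was at 10.4, 13.85 and 13.24 CPM with FcMR and 0.5032, 0.439 and 0.3944 with isotype, a level of few counts in these libraries. The isotype level thus fell by more than the FcMR level, 2.08 against 0.55 on the log2 scale (interaction 1.53, SE 0.30, edgeR adjusted p = 0.0341, and 0.0519 without FcMR 12 h replicate 1). Il12b, the partner subunit, had an interaction of the other sign that did not pass (-0.85, SE 0.23, edgeR adjusted p = 0.117). Il12b was called with GC offsets (edgeR adjusted p = 0.00841) and not with the replicate block (0.0845). Csf1, the growth factor of macrophages, did not differ detectably at 12 h and was at 73.68, 66.65 and 84.35 CPM with FcMR against 132.4, 127.6 and 124.5 with isotype at 24 h (interaction -0.80, SE 0.14, edgeR adjusted p = 0.0204); its FcMR level alone passed the test over time.

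Other inflammatory genes had strong effects at each time, with no called change between them in the fit without GC offsets. Il1b had effects of 3.99 at 12 h and 4.38 at 24 h (interaction 0.38, SE 0.18, edgeR adjusted p = 0.539). With GC offsets Il1b was called (interaction 0.40, edgeR adjusted p = 0.044). Il6 had effects of 4.00 and 3.41 (interaction -0.60, SE 0.34, edgeR adjusted p = 0.678), and Nos2, the inducible nitric oxide synthase, 2.87 and 3.36 (interaction 0.49, SE 0.31, edgeR adjusted p = 0.73). Neither Il6 nor Nos2 was called with GC offsets (edgeR adjusted p = 0.0958 and 0.522). The interactions of Il10, Cxcl2 and Nfkbia were 0.36, 0.18 and 0.22, also not called, and those of Il10 and Cxcl2 changed sign in some fits. Of 22 genes of NF-kB feedback and RNA decay, 1 was called: Tnfaip3, which encodes the inhibitor A20 of NF-kB signalling, fell with both treatments and its effect went from 1.25 to 0.75 (interaction -0.50, SE 0.11, edgeR adjusted p = 0.0463, and 0.0652 without FcMR 12 h replicate 1). Of 32 interferon-stimulated genes 1 was called, Gbp2, a guanylate-binding protein, which fell by 1.40 with FcMR and by 2.79 with isotype (interaction 1.39, SE 0.21, edgeR adjusted p = 0.0089); it has close copies among which estimated counts can be split. The median interaction of the interferon-stimulated genes was 0.03, that of all genes, of which 1.30% were called.

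**Figure D2:**
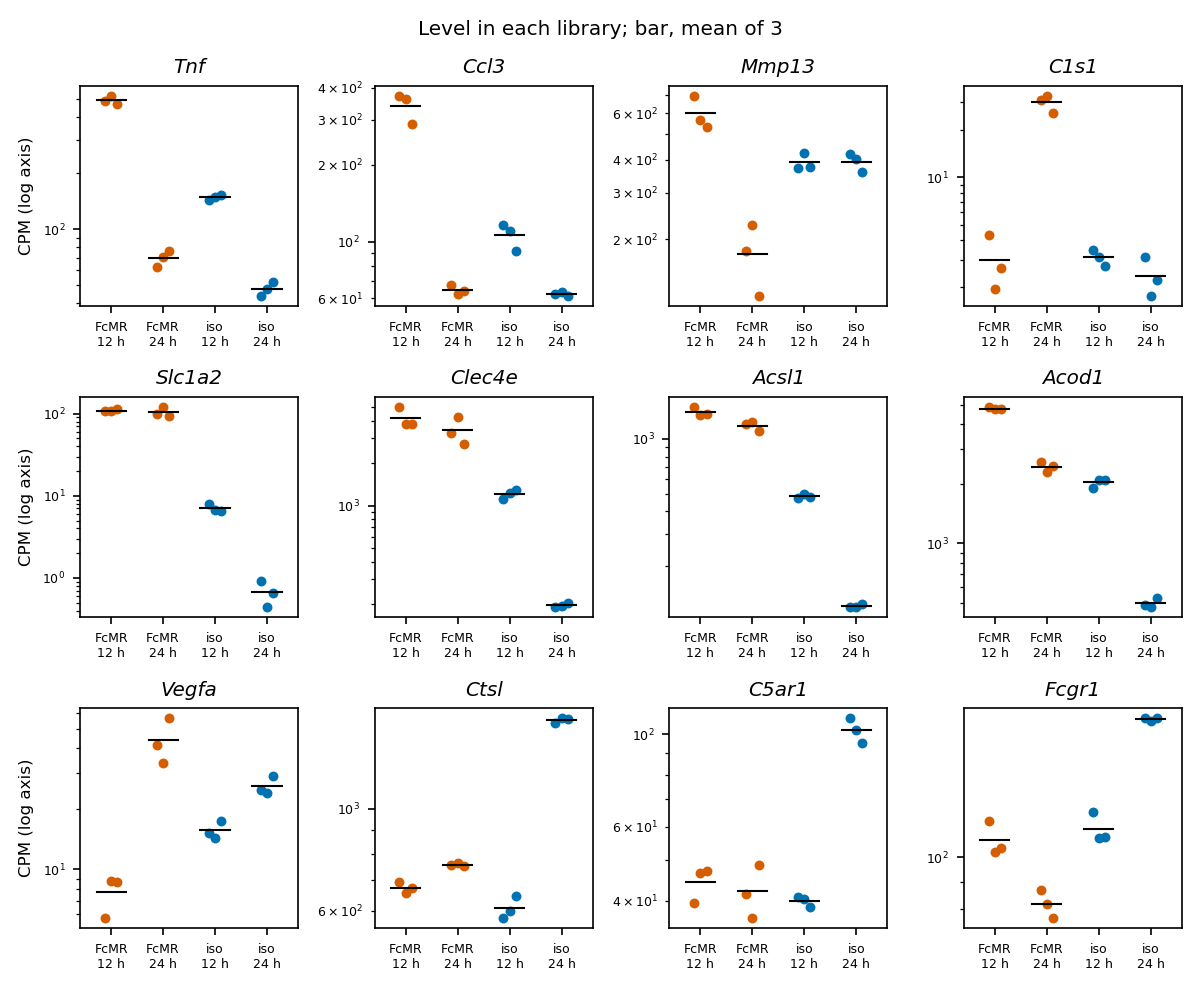
CPM of 12 genes (log axis) in the 3 libraries of each of the 4 groups, points for libraries and a bar for the mean of 3. Tnf and Ccl3 fall with both treatments and more with FcMR. Slc1a2 and Clec4e fall with isotype, and Acsl1 and Acod1 fall with both treatments and more with isotype. C1s1 and Vegfa rise with FcMR, Ctsl, C5ar1 and Fcgr1 rise with isotype, and Mmp13 falls with FcMR.

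Slc1a2 and Clec4e fell with isotype and not detectably with FcMR, so that their effect was larger at 24 h. Slc1a2 (chromosome 2, 102658659 to 102790784), a glutamate transporter, was at 107.1, 106.6 and 112.5 CPM with FcMR at 12 h and at 98.53, 120.3 and 93.05 at 24 h, and these ranges overlapped. With isotype it went from 7.926, 6.719 and 6.452 CPM to 0.9057, 0.439 and 0.6573. Its effect went from 3.95 to 7.26 (interaction 3.30, SE 0.26, edgeR adjusted p = 0.000316). The isotype 24 h libraries held 4 to 9 counts of Slc1a2, so the sizes of its 24 h effect and interaction are uncertain. Clec4e (chromosome 6, 123281789 to 123289870), the C-type lectin Mincle that senses mycobacterial glycolipid and dead cells, was at 5004, 3772 and 3807 CPM with FcMR and 1108, 1225 and 1295 with isotype at 12 h. At 24 h it was at 3260, 4228 and 2757 against 190, 193.6 and 203.6 CPM (interaction 2.33, SE 0.22, edgeR adjusted p = 0.000873). The FcMR ranges of Clec4e overlapped between the times and the isotype ranges did not. Of 16 C-type lectins tested 2 had a higher effect at 24 h and none a lower, beside 0.864% and 0.436% of all genes. The other called lectin, Clec9a, rose with both treatments. Its effect of -1.53 at 12 h was -0.30 and not called at 24 h (interaction 1.23, SE 0.26, edgeR adjusted p = 0.0463).

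Acsl1, Acod1 and Ptges, enzymes of lipid, itaconate and prostaglandin metabolism, also had a larger effect at 24 h after a fall of the isotype level. Acsl1 (chromosome 8, 46471037 to 46536051), which activates fatty acids with coenzyme A, had the smallest p of all genes. It was at 1500, 1348 and 1377 CPM with FcMR and 472.5, 494.6 and 479.5 with isotype at 12 h, and at 1210, 1233 and 1104 against 118.5, 118 and 122.3 at 24 h. Isotype fell by 2.01 (log2) and FcMR by 0.25 (interaction 1.76, SE 0.11, edgeR adjusted p = 3.98e-05). Acod1 (chromosome 14, 103046977 to 103056573), which makes itaconate, went from 4874, 4741 and 4742 to 2564, 2296 and 2456 CPM with FcMR and from 1911, 2091 and 2088 to 492.4, 476.7 and 529.4 with isotype (interaction 1.05, SE 0.11, edgeR adjusted p = 0.00136). Both of its levels fell, the isotype level by more. Ptges, which makes prostaglandin E2, was at 144.6 to 209.9 CPM with FcMR at 12 h and 116.3 to 159.2 at 24 h, while isotype went from 30.28 to 40.2 CPM down to 7.749 to 9.991 (interaction 1.58, SE 0.25, edgeR adjusted p = 0.0115).

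Of the 20 genes of nitric oxide, arginine, itaconate and prostaglandin metabolism, 4 had a higher effect at 24 h and none a lower. Over all genes these shares were 0.864% and 0.436%. The median interaction of the 20 genes was 0.32. The other called members were Ass1, of arginine synthesis, whose effect turned from -0.40 to 0.33, and Ptgs1, a cyclooxygenase, whose effect shrank from -1.52 to -0.85; Ass1 and Ptgs1 were named after their values were seen. Of 22 genes of amino acid transport and the ATF4 response, 2 were called higher, Slc1a2 and Slc7a2; Slc7a2, an arginine transporter, fell by 0.51 with FcMR and by 1.67 with isotype (interaction 1.16, SE 0.16, edgeR adjusted p = 0.00613). Of 23 antioxidant and iron genes, 2 were called higher and 18 of 23 interactions were positive, with a median of 0.32. Over all genes, 7156 of 13079 were positive, with a median of 0.03. Sod2, the mitochondrial superoxide dismutase, fell by 0.31 with FcMR and by 1.36 with isotype (interaction 1.05, SE 0.14, edgeR adjusted p = 0.00429). For Prdx6, a peroxidase that acts on lipids, the FcMR level alone passed and rose by 0.67 (interaction 0.94, SE 0.14, edgeR adjusted p = 0.00914).

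C1s1, the named gene with the highest interaction, rose with FcMR between the times. C1s1 (ENSMUSG00000038521.17, chromosome 6, 124530345 to 124542359), a protease of the first complement component, was at 4.314, 1.952 and 2.668 CPM with FcMR and 3.478, 3.135 and 2.745 with isotype at 12 h, which overlapped. At 24 h it was at 31.21, 32.86 and 25.72 CPM with FcMR and at 3.12, 1.756 and 2.235 with isotype. The FcMR level alone passed the test over time, rising by 3.33 (log2), with an interaction of 3.69 (SE 0.38, edgeR adjusted p = 0.00136). C1ra, C3 and Cfb were chosen after their values were seen, no complement list was drawn up, and other complement genes were not counted. C1ra, the partner protease, was at 39.75 to 48.16 CPM with FcMR at 12 h and 73.59 to 87 at 24 h, and at 28.32 to 37.07 in the isotype libraries of both times (interaction 0.92, SE 0.16, edgeR adjusted p = 0.0217). C3, the central component, went from 709.2 to 724.7 CPM up to 821 to 1103 with FcMR and from 658.9 to 723.9 down to 474.5 to 520.1 with isotype (interaction 0.91, SE 0.15, edgeR adjusted p = 0.0139). Cfb, factor B of the alternative pathway, also rose with FcMR and fell with isotype (interaction 0.94, SE 0.17, edgeR adjusted p = 0.0225).

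The promoters of 5 of these genes are shown because their members moved in contrasting ways: C1s1 rose with FcMR, Slc1a2 and Clec4e fell with isotype alone, and Tnf and Ccl3 fell most with FcMR. Each is the RefSeq window from 250 bases before the start to 50 after it on GRCm38.p6, 5′ to 3′ on the gene's strand, and capitals mark the C/EBP-type motif TTGCNNAA on either strand. The windows are chr6:124542310-124542609 (minus), chr2:102706188-102706487 (plus, a start inside the longer annotated gene), chr6:123289822-123290121 (minus), chr17:35201958-35202257 (minus) and chr11:83649329-83649628 (minus).
C1s1: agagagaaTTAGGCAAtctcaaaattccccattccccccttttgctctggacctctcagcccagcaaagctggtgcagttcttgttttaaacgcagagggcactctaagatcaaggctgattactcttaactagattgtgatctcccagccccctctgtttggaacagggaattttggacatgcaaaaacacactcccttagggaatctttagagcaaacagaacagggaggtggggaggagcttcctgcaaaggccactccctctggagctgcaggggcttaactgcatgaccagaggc
Slc1a2: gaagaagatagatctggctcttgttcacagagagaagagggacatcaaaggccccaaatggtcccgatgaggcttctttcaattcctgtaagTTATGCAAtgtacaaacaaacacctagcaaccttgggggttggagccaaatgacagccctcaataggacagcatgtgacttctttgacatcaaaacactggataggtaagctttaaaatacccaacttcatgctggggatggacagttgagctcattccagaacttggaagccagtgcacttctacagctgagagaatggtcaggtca
Clec4e: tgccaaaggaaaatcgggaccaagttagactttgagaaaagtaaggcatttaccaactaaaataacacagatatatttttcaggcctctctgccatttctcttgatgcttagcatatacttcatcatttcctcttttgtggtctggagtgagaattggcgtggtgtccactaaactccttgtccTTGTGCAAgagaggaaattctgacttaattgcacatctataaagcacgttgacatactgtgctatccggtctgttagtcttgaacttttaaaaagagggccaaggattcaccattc
Tnf: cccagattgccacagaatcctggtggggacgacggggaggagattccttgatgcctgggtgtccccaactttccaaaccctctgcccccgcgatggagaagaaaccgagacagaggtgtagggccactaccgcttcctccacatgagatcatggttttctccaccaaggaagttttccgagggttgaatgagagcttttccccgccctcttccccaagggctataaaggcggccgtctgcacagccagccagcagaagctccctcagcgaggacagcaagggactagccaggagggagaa
Ccl3: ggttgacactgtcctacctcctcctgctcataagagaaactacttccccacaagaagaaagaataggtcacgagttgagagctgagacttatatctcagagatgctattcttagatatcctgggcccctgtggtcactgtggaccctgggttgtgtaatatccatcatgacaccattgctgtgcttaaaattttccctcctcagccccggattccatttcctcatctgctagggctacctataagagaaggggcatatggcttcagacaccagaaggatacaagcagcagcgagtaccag

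Motifs were searched on both strands: TTGCNNAA (C/EBP-type), TGANTCA (AP-1-type) and, with NN between its parts, GGG followed by TTTCC (kB-type). A match begins 242 bases before the start of C1s1, 158 before that of Slc1a2 and 66 before that of Clec4e, and no letters of these motifs are in the Tnf and Ccl3 windows. The C/EBP-type motif is in 10.8% of all 27025 RefSeq promoters of this length, in 8.64% of the 9611 promoters of tested genes and in 17 of the 129 promoters matched to called genes (13.2%). The AP-1-type motif is in 7.93%, 5.1% and 12.4% of these sets (16 of the called genes), and the kB-type motif in 1.62%, 1.77% and 3.1% (4 of the called genes). These are descriptions of letters and not of binding.

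Vegfa and Hilpda, genes known to respond to low oxygen, rose with FcMR. Vegfa, the growth factor of blood vessels, was below isotype at 12 h, at 5.728, 8.784 and 8.694 CPM against 15.22, 14.33 and 17.45, and above it at 24 h, at 41.62, 33.83 and 56.36 against 24.66, 24.04 and 28.92. Both levels rose, FcMR by 2.50 (log2) and isotype by 0.71, and the effect turned from -1.03 to 0.76 (interaction 1.78, SE 0.29, edgeR adjusted p = 0.0125). Hilpda, a lipid droplet protein, was at 11.66 to 12.87 CPM with FcMR and 13.06 to 14.7 with isotype at 12 h, and at 31.85 to 36.06 against 15.04 to 16.5 at 24 h (interaction 1.28, SE 0.14, edgeR adjusted p = 0.00149); it was 1 of 2 called among 23 genes of fatty acid handling, with Acsl1. Of the 24 genes of glycolysis and HIF targets tested, Vegfa alone was called. Their interactions were positive in 20 of 24, with a median of 0.27, beside 7156 of 13079 and 0.03 for all genes. Over all genes, 0.864% were called higher.

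Receptors for chemokines and complement fragments split between higher and lower. Of 14 tested, 4 had a higher effect at 24 h (Cx3cr1, Fpr2, Cxcr4 and Ccrl2) and 2 a lower (C5ar1 and C3ar1). Over all genes these shares were 0.864% and 0.436%. Cx3cr1, the fractalkine receptor, was at 4.984, 4.525 and 4.396 CPM with FcMR and 11.23, 11.2 and 9.973 with isotype at 12 h, and at 10.51, 10.83 and 11.6 against 12.38, 11.41 and 8.939 at 24 h. The FcMR level rose to the isotype range, and the effect of -1.21 at 12 h was 0.0028 at 24 h (interaction 1.22, SE 0.19, edgeR adjusted p = 0.0115). C5ar1, the receptor of the complement fragment C5a, was at 39.57, 46.58 and 47.08 CPM with FcMR and 40.88, 40.46 and 38.62 with isotype at 12 h. At 24 h it was at 41.51, 36.29 and 48.67 with FcMR against 109.2, 102.1 and 95.44 with isotype, so that the isotype level rose by 1.36 (log2) while the FcMR ranges of the 2 times overlapped (interaction -1.44, SE 0.16, edgeR adjusted p = 0.00164). C3ar1, the C3a receptor, rose with both treatments, by 0.66 with FcMR and by 1.68 with isotype (interaction -1.03, SE 0.20, edgeR adjusted p = 0.0358). The effect on C3ar1 was -1.77 at 12 h and -2.80 at 24 h. Ccr2, the receptor of Ccl2, had an interaction of -1.13 (SE 0.44) that did not pass (edgeR adjusted p = 0.382). Ccr2 was called with the replicate block (edgeR adjusted p = 0.0475) and not with GC offsets (0.0927).

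Fcgr1 and Fcgr4, receptors for the Fc part of IgG, and the lysosomal proteases Ctsl and Lgmn rose with isotype. FcMR itself carries an Fc part, and whether this bears on these genes was not tested. Of 15 Fc gamma receptors and signalling partners tested, 4 had a lower effect at 24 h (Fcgr1, Fcgr4, Lyn and Lat2) and none a higher, with a median interaction of -0.12. Of all genes tested, 0.436% were called lower and 0.864% higher, with a median of 0.03. Fcgr1, the high-affinity receptor, was at 117, 102.2 and 104.2 CPM with FcMR and 121.8, 108.7 and 109.3 with isotype at 12 h, which overlapped. At 24 h the values were 86.85, 81.62 and 76.79 with FcMR and 183.1, 181 and 182.9 with isotype; FcMR fell by 0.40 and isotype rose by 0.69 (interaction -1.09, SE 0.12, edgeR adjusted p = 0.00149). Fcgr4 was at 8.448 to 11.43 CPM with FcMR and 19.72 to 25.26 with isotype at 24 h, from overlapping levels at 12 h (interaction -1.21, SE 0.24, edgeR adjusted p = 0.036). The interactions of Lyn, a kinase, and Lat2, an adaptor, named after their values were seen, were -0.51 and -0.66.

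Ctsl, the lysosomal protease cathepsin L, was at 691.9, 655.8 and 672.8 CPM with FcMR and 578.3, 599.8 and 646.2 with isotype at 12 h. At 24 h it was at 756.4, 764.4 and 749.8 with FcMR and 1537, 1577 and 1570 with isotype (interaction -1.19, SE 0.10, edgeR adjusted p = 0.000328). The isotype level alone passed the test over time, rising by 1.36 (log2). Lgmn, legumain, an asparagine-specific protease, was at 180.8, 204.4 and 213.1 CPM with FcMR and 365.4, 350.6 and 360.8 with isotype at 12 h, and at 209.5, 173.6 and 190 against 666.3, 625.2 and 633.3 at 24 h (interaction -0.90, SE 0.13, edgeR adjusted p = 0.00608). These were the 2 called of 24 lysosome and proton pump genes, of which 18 had a negative interaction, with a median of -0.10. Over all genes, 0.436% were called lower, and 5923 of 13079 interactions were negative.

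Mmp13 and Fn1 fell with FcMR. Mmp13, a collagenase, was above isotype at 12 h, at 696.2, 566.9 and 531.4 CPM against 372.1, 424.3 and 373.5, and below it at 24 h, at 180, 225.5 and 121.4 against 420.6, 400.5 and 358. Its isotype libraries overlapped between the times, and the FcMR level fell by 1.76 (interaction -1.78, SE 0.27, edgeR adjusted p = 0.0089). Fn1, the matrix protein fibronectin, was at 251.2 to 325.6 CPM with FcMR and 302.8 to 342 with isotype at 12 h, and at 80.46 to 125.3 against 277.9 to 305.8 at 24 h (interaction -1.42, SE 0.21, edgeR adjusted p = 0.0089). Fn1 was the 1 lower call of 18 genes of alternative activation, with Klf4 and Ccl22 called higher. Over all genes, 0.436% were called lower and 0.864% higher. Klf4, a transcription factor, had effects of -1.25 and -0.39 (interaction 0.86, SE 0.18, edgeR adjusted p = 0.0399). Klf4 was not called with GC offsets (edgeR adjusted p = 0.142) or without FcMR 12 h replicate 1 (0.0644).

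Further genes with the largest interactions belong to none of these groups. Cd300e, an activating receptor of myeloid cells, was at 3.904 to 5.43 CPM with FcMR and 2.187 to 2.566 with isotype at 12 h, and at 7.691 to 9.745 against 0.5032 to 1.098 at 24 h (interaction 2.62, SE 0.35, edgeR adjusted p = 0.00452). Smpdl3b, a membrane phosphodiesterase, Susd2 and Gp6, the platelet collagen receptor, also rose with FcMR and fell with isotype, with interactions of 1.89, 2.23 and 1.93. Cbln1 had an interaction of 3.0 (SE 0.52), with isotype 24 h libraries at 0.1098 to 0.7044 CPM, near the level of 3 counts. Gsta1, a glutathione transferase with close copies, rose with FcMR alone (interaction 2.47, SE 0.52, edgeR adjusted p = 0.0452, and 0.0706 without FcMR 12 h replicate 1). Among lower effects, Sh3bp5 and Trim30c fell with both treatments and more with FcMR (interactions -1.70 and -1.50), Hal, which degrades histidine, rose with isotype alone (-1.64), and Rgl1 and Ehd4 fell with FcMR alone (-0.98 and -0.62). Trim30c belongs to a family of close copies.

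**Figure D3:**
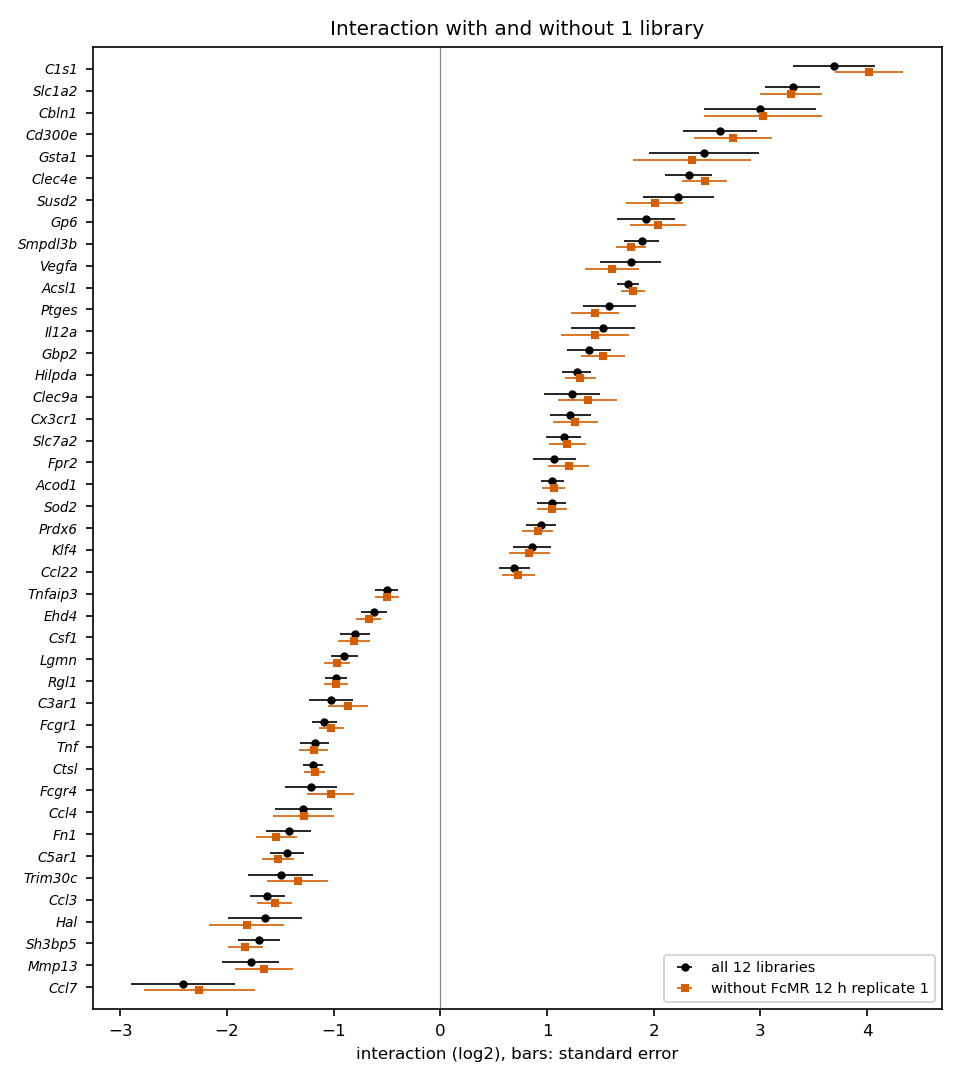
Interaction (log2, ± SE) of the named called genes with all 12 libraries and without FcMR 12 h replicate 1. The 2 estimates lie close for each gene and none changes sign; Gsta1, Il12a, Klf4, Tnfaip3, Ccl4 and Ccl7 lose their call without that library.

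The mitosis and DNA replication lists held no called gene, although most values were negative. Mybl2, a cell cycle regulator in neither list, was called and was named after its values were seen. Its FcMR level fell and its effect was called at 24 h alone (interaction -2.10, edgeR adjusted p = 0.0123). Of 28 mitosis and G2/M genes tested, 25 had a negative interaction, with a median of -0.63, and none passed. The median effect was -0.58 at 12 h, with 3 of 28 called lower, and -1.24 at 24 h, with 21 of 28 called lower, beside 7.39% and 9.10% of all genes called lower at these times. The isotype level was called higher at 24 h in 8 of 28 (7.34% of all genes) and the FcMR level in 1 (12.1% of all genes). The mean log2 CPM of the list differed between libraries of the same group, from 2.299 to 3.029 in isotype 24 h, and within replicate numbers 1, 2 and 3 the interaction of this mean was -0.80, -0.34 and -0.46. Of 30 genes of DNA replication and G1/S, 26 had a negative interaction, with a median of -0.22, and none passed. Over all genes, 5923 of 13079 interactions were negative. Sterol synthesis (22 genes), oxidative phosphorylation (28) and MHC class II presentation (19) held no called gene, with median interactions of -0.02, 0.05 and 0.20.

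**Figure D4:**
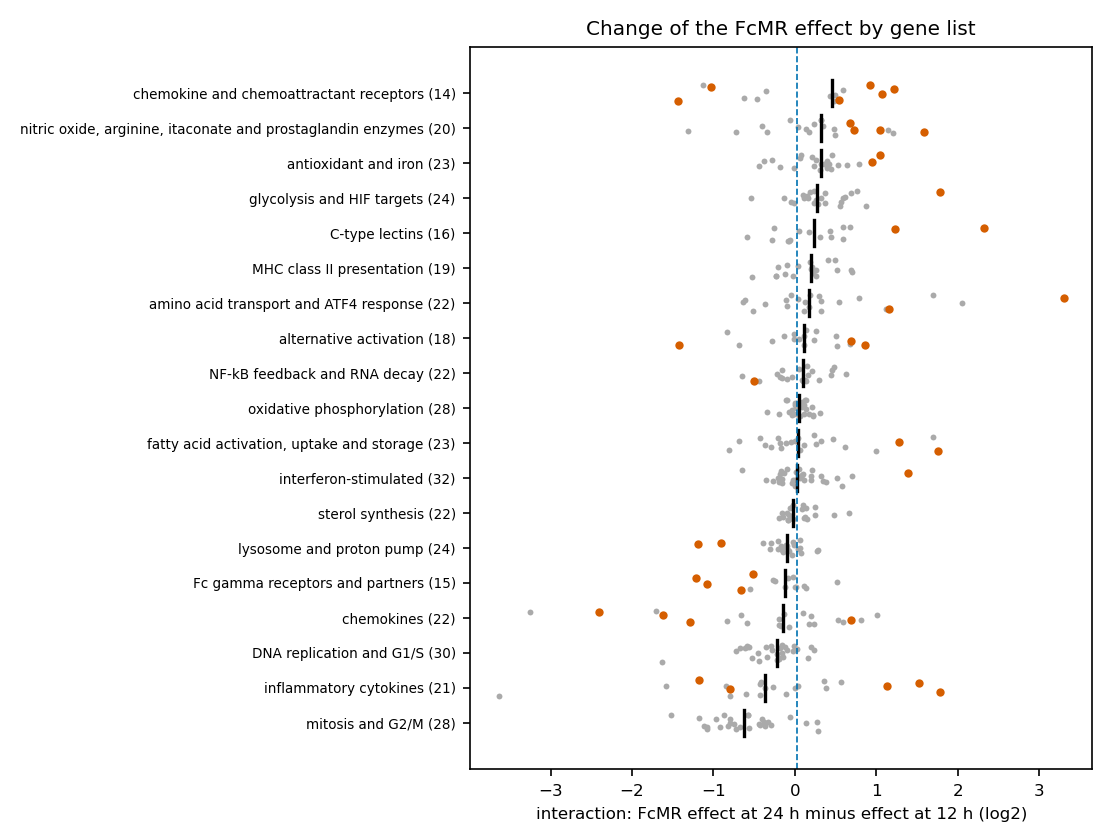
Interaction (log2) of every tested member of the 19 gene lists; orange points are called, black bars list medians and the dashed line the median of all genes, 0.03. The mitosis list lies lowest, at -0.63 with no called gene, and the other medians lie between -0.37 and 0.45.

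Markers of other cell types were counted beside these results. Of 14 neutrophil markers 8 were tested and none had a called interaction; their summed level was 486.3 to 743 CPM in FcMR 12 h, 672.7 to 779.5 in isotype 12 h, 658.7 to 777.6 in FcMR 24 h and 1459.3 to 1542.1 in isotype 24 h. Most of the isotype 24 h sum was Mmp8, a collagenase (mean 1277.4 CPM, interaction -0.30, edgeR adjusted p = 0.703), and Ly6g, Elane, Mpo, Prtn3, Ctsg and Retnlg were too low to test, with at most 58 counts in a library. Of 12 dendritic cell markers 10 were tested, with summed levels of 1569.8 to 2520.9, 1376.8 to 1611.2, 1047.1 to 1382 and 717.4 to 836 CPM in the same order of groups, and Clec9a was called. The 11 macrophage and monocyte markers summed to 21361.1 to 24584.3, 23921.5 to 26077.8, 26966.7 to 29631.2 and 32352.7 to 36709.9 CPM, with Fcgr1 called lower and Ly6c2 higher. Summed T cell markers (3 of 10 tested) were at or under 5.531 CPM in every library, mast cell markers (8 of 10) at or under 43.37 and B cell markers (6 of 8) at or under 48.07. Summed fibroblast markers (4 of 10 tested) were at 14.43 to 20.59 CPM in FcMR 12 h, 5.531 to 6.868 in isotype 12 h, 11.84 to 16.52 in FcMR 24 h and 5.488 to 7.145 in isotype 24 h. Summed erythroid markers (4 of 8) were at 1.235 to 7.587, 0.8553 to 6.887, 0.03734 to 5.84 and 0 to 0.1315 CPM in the same order. None of the tested markers of these 5 types had a called interaction. The part of these cell types in the results was not tested, and in bulk RNA fewer cells of a type and less RNA per cell cannot be told apart. Ptprc, the leukocyte gene CD45, had an interaction of -0.06 (SE 0.19, edgeR adjusted p = 1).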

How the data were processed

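RNA was sequenced as 75 bp single-end reads (TruSeq RNA v2, 100 ng of RNA, per the labels' protocols). The submitters' processing notes name CASAVA 1.8.2, kallisto 0.44.0, DESeq2, mm10 and GRCm38; the annotation release is not given in the sources used here. The deposited raw table holds expected counts per gene, estimated by the authors and deposited as whole numbers, for 23250 genes. The authors also deposited a normalized table on a linear signal scale, equal to the raw table divided by a factor per gene and library whose geometric mean over the 21 libraries is 1; it served as an alternative.

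The members, the gene lists and the tests were chosen with earlier results of these data known. The plan had assumed counts; edgeR's quasi-likelihood test was kept for the expected counts, since these are already whole. It was fitted to 12 libraries with 1 coefficient per group (edgeR 4.0.16, R 4.3.3, TMM scaling, filterByExpr with a minimum of 10 counts, 13079 genes kept), and calls were made below 0.05 after Benjamini-Hochberg adjustment of the p-value. SEs are the absolute log2 change divided by the square root of F. Levels are CPM after TMM scaling, not corrected for length, so that they compare libraries and not genes. Groups and replicate numbers were read from the titles. Symbols and positions are GENCODE M21 (GRCm38), matched for 23206 IDs without version and 21250 with it. GC content was known for 13056 tested genes, and GC-rich and GC-poor genes are those above 57.35% and below 41.72%. Replicate libraries correlated at r = 0.9458 to 0.987 on log2 CPM across genes. Their counts differed beyond sampling noise (chi-square of 3.092 or more for each degree of freedom). Each was fitted as a separate library, but this spread may be technical and does not show separate mice or cultures. Floors and levels of few counts cover counting error only, since reads carry no molecular identifiers.

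Genes were named as follows: among called protein-coding genes whose average log2 CPM was 2 or more, the 8 highest and 8 lowest interactions and the 4 smallest p in each direction, 19 genes by name, and up to 2 called members each way of each of 19 lists. On simulated data for the interaction over 13079 genes, the script recovered 35% of 100 genes changed by log2 1 and 72% of 100 changed by log2 2, with 5 false calls. The simulated counts were drawn independently around 1 mean for each gene, without GC shifts or outlying libraries. These rates therefore may not hold for the real libraries. Alternatives were RLE factors, no filter, a minimum mean of 10 counts, limma 3.58.1 with voom, DESeq2 1.42.0, all 21 libraries, a replicate block, GC offsets, the normalized table on log2(value + 1), thinning every library to 6676302 counts, and leaving out each library.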

Additional observations from a re-analysis of the deposited data

Results flagged for a closer look

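Each value here is a gene whose FcMR effect at 24 h differed from that at 12 h in the edgeR test of that difference; the value is the interaction on the log2 scale. Outlying libraries were not searched for gene by gene in these groups of 3. In all, 170 genes were called. Among named genes with a higher effect at 24 h, the interaction was 3.69 for C1s1, 3.3 for Slc1a2, 3.0 for Cbln1, 2.62 for Cd300e, 2.47 for Gsta1, 2.33 for Clec4e, 2.23 for Susd2, 1.93 for Gp6, 1.89 for Smpdl3b, 1.78 for Vegfa and 1.76 for Acsl1. It was 1.58 for Ptges, 1.53 for Il12a, 1.39 for Gbp2, 1.28 for Hilpda, 1.23 for Clec9a, 1.22 for Cx3cr1, 1.16 for Slc7a2, 1.07 for Fpr2, 1.05 for Acod1 and for Sod2, 0.944 for Prdx6, 0.862 for Klf4 and 0.693 for Ccl22. Among those with a lower effect at 24 h, it was -2.41 for Ccl7, -1.78 for Mmp13, -1.7 for Sh3bp5, -1.64 for Hal, -1.62 for Ccl3, -1.5 for Trim30c, -1.44 for C5ar1, -1.42 for Fn1, -1.28 for Ccl4, -1.21 for Fcgr4, -1.19 for Ctsl and -1.18 for Tnf. It was -1.09 for Fcgr1, -1.03 for C3ar1, -0.977 for Rgl1, -0.901 for Lgmn, -0.802 for Csf1, -0.62 for Ehd4 and -0.503 for Tnfaip3.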

How the results depend on the processing

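All 170 called interactions kept their sign in every alternative, while the number called depended on the choice. Against 170 calls (113 higher and 57 lower), there were 102 with no expression filter (67 and 35; 23228 genes tested), 80 in the normalized table with limma (52 and 28), 95 with totals thinned to the smallest (65 and 30), 297 with DESeq2 (169 and 128), 597 with GC offsets (390 and 207) and 736 with GC offsets and the replicate block (477 and 259). Of the 170, 100, 77, 92, 169, 166 and 168 were among these. RLE factors gave 153, a mean of at least 10 counts 166, limma-voom 164 and all 21 libraries 233. The causes were not tested.

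By which level moved (FcMR alone 66, isotype alone 48, both 56, neither 0), the counts were 119, 89, 87 and 2 with DESeq2. With GC offsets they were 232, 149 and 216, with GC offsets and the block 252, 181 and 303, with limma on normalized values 29, 25 and 26, and after thinning 39, 31 and 25. FcMR alone held 101 genes with 21 libraries, and both levels 24 with no filter. Against 3239 FcMR and 2282 isotype time calls and 2037 and 2654 effect calls at 12 h and 24 h, GC offsets gave 3951 isotype time calls and 3331 effect calls at 12 h, and GC offsets with the block 4907, 4191, 3504 and 4148. Leaving out 1 library gave 60 to 204 interaction calls (40 to 142 higher, 20 to 62 lower), with 22 to 80, 21 to 50 and 15 to 74 genes for FcMR alone, isotype alone and both, and 0 for neither. Time calls ran from 1803 to 5058 with FcMR and 1197 to 3449 with isotype, and effect calls from 1286 to 2440 at 12 h and 1814 to 3200 at 24 h. The fewest interaction calls came without isotype 12 h replicate 3, and 5058 FcMR time calls without FcMR 12 h replicate 1. Without that library and with GC offsets there were 600 interaction calls (338 and 262), of which 219 were FcMR alone, 142 isotype alone and 239 both, with 5219 FcMR and 4378 isotype time calls and 3181 and 4410 effect calls.

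The check used does not settle whether the replicate numbers pair the libraries. Deviations from the group mean of libraries that share a number correlated at -0.3886 to 0.4559 (mean 0.059). Yet 9 of 12 libraries matched best with their own number in another group. The mean log2 CPM of the mitosis list also fell from replicate 1 to replicate 3 in each group, for example from 3.029 to 2.299 in isotype 24 h. The fit that gave the 170 calls has no block and so leaves out any such pairing. With the replicate block 149 interactions were called, 130 of them among the 170; of the named genes 8 were not called with it, Gsta1, Clec9a, Fpr2, Klf4, Tnfaip3, Ehd4, Ccl4 and Hal.

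Signs turned only in genes that were not called. Il10, at few counts in isotype 24 h, had -0.137 with voom, -0.3492 in the normalized table, -1.209 after thinning and -0.2261 to 0.8011 when 1 library was left out, the lowest without isotype 24 h replicate 2. Cxcl2 had -0.06914 (without FcMR 24 h replicate 2) to 0.3065 when 1 library was left out, and -0.03386 with GC offsets and without FcMR 12 h replicate 1. Ptprc had 0.01558 with GC offsets, 0.01396 with GC offsets and the block, and -0.2196 to 0.08923 when 1 library was left out, positive without FcMR 12 h replicate 1 (0.08923) or FcMR 24 h replicate 3 (0.008133). Depth limits genes near 3 counts, such as Slc1a2, Il12a and Cbln1 in isotype 24 h.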

Other observations

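The levels before 12 h place these changes in time; they are mean CPM ± SD over 3 libraries, scaled over all 21 libraries, and were not tested here. Tnf was at 160.3 ± 5.638 in untreated cells and at 5790 ± 283.8 with FcMR and 1057 ± 170.2 with isotype at 4 h. Ccl3 was at 96.57 ± 4.526 untreated, 3900.9 ± 344.1 with FcMR and 532 ± 44.48 with isotype at 4 h. Both genes were therefore far above their 12 h levels at 4 h with each treatment. Slc1a2, a glutamate transporter, was at 0.426 ± 0.1375 untreated, 31.5 ± 3.187 with FcMR at 4 h and 107 ± 3.099 with FcMR at 12 h, so that its isotype 24 h level of 0.6518 ± 0.2271 was near the untreated level. Acsl1 was at 53.4 ± 4.086 untreated, 645.9 ± 47.84 with FcMR and 335 ± 39.78 with isotype at 4 h.

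C1s1 was at 0.3638 ± 0.1914 with FcMR and 0.8894 ± 0.4579 with isotype at 4 h, below its level of 29.14 ± 3.85 with FcMR at 24 h. Vegfa was at 114.7 ± 18.57 in untreated cells, above all 4 groups of 12 h and 24 h, and at 22.86 ± 1.443 with FcMR at 4 h. Hilpda had the same order, at 71.56 ± 7.922 untreated and 30.37 ± 4.53 with FcMR at 4 h, against 33.69 ± 2.027 with FcMR at 24 h. Ctsl was at 660.9 ± 61.17 untreated and 1525.4 ± 23.7 in isotype 24 h.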
